A study of Mus musculus with 27 samples.

Results

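Pancreatic islets taken 8 h after an injection of 4-hydroxytamoxifen were compared with islets of untreated mice, gene by gene. The comparison used 6 of the 27 arrays of the series, 3 from the 8 h group and 3 from the untreated group, chosen by their titles alone. All mice carried 2 transgenes under an insulin promoter, so the proteins are made in the insulin-producing beta cells. The first encodes MycER, a fusion of the transcription factor Myc with the hormone-binding part of the oestrogen receptor, which works as Myc only while 4-hydroxytamoxifen is bound. The second encodes BclXL, a protein that blocks apoptosis, and the untreated mice carried both as well. The drug was injected systemically, and the untreated mice stand for time 0. Islets were cut out of pancreas sections with a laser and their RNA was amplified in 2 linear rounds before hybridisation. The labels name no group that received an injection without the drug and no group without MycER, so effects of the injection, of the drug and of active MycER cannot be told apart. Whether replicates come from different mice is not stated, and p-values therefore cover only the spread among these samples. The question addressed was which genes differed in islets 8 h after the injection.

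Myc pairs with Max and binds the E-box sequence CACGTG and its variants near gene starts. Its well-known targets serve cell growth, among them genes for building ribosomes, making nucleotides and amino acids, folding proteins and supplying mitochondria, and it drives resting cells into the division cycle. Adult beta cells rarely divide. Their identity rests on transcription factors such as Pdx1, on a glucose-sensing apparatus and on the granules that store insulin.

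Values are log2 levels from RMA, so a difference of 1 is 2-fold. A gene was called at a Benjamini-Hochberg adjusted p under 0.05 in limma, fitted over all 27 arrays with 9 group means. The ± after a difference is its standard error (SE) and after a level its standard deviation (SD), with n = 3 arrays in each group. The 8251 genes each have the values of their brightest probe set over all arrays. An exact permutation of 3 arrays against 3 cannot give a two-sided p under 0.1, so none is given for single genes.

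The median log2 level of the 6 arrays lay between 6.94 and 6.98. Across probe sets the r of 2 arrays was 0.978 to 0.984 in the untreated group and 0.968 to 0.978 at 8 h. Markers of acinar cells, the enzyme-secreting cells around islets, differed most between arrays. Their mean over 22 genes was 9.85, 7.47 and 8.00 in untreated replicates 1 to 3 and 9.07, 8.96 and 11.27 at 8 h. Replicate 3 at 8 h stood apart in this list and had the highest mean of 46 leukocyte markers, 8.54 against 7.14 to 8.00 in the other 5 arrays. All 22 acinar markers had a change above 0, with a median of 1.24, yet Reg3g alone was called, and 0 of 46 leukocyte markers were called in either direction. The 3′ excess of the Gapdh control, a sign of RNA quality or amplification, was 3.65 to 5.67 in untreated arrays and 4.50 to 4.94 at 8 h. The 5 beta cell markers had a mean of 10.94 to 11.36 in untreated arrays and 10.24 to 10.75 at 8 h, so the 2 groups did not overlap. In such bulk samples fewer cells of a type and less RNA per cell cannot be told apart. With the acinar and leukocyte means as covariates 114 of the 158 called genes kept their call, and with the Gapdh excess 156 did. The plot of marker lists shows these means for each array.

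**Figure D1:**
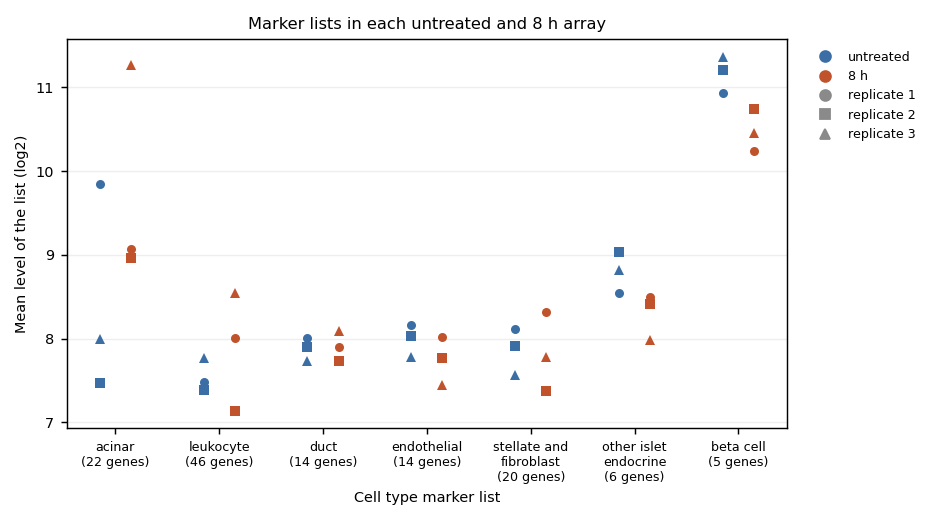
Mean log2 level (vertical axis) of 7 cell type marker lists (horizontal axis, with the number of genes) in each untreated array (blue) and each 8 h array (red), with symbols for replicates 1 to 3. The acinar mean of 8 h replicate 3 reached 11.27, and the beta cell means of the 2 groups did not overlap.

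At 8 h 158 of the 8251 genes, or 1.91%, passed the test in either direction. Of these 95 were higher (1.15% of genes) and 63 were lower (0.764%). The rises spanned 0.48 to 2.87 on the log2 scale with a median of 0.88, and 31 of them reached 2-fold. The falls were smaller, with sizes of 0.36 to 2.80 and a median of 0.61, and 9 reached 2-fold. In all 95 higher genes the 3 arrays at 8 h lay above the 3 untreated arrays, and in 62 of the 63 lower genes they lay below, Btg2 being the exception. Such a separation was found in 485 of all genes upward (5.88%) and in 776 downward (9.4%). The median change over all genes was −0.05, with 3333 genes above 0 and 4907 below. Counts of list members given below are to be read against these shares of all genes. The lists were chosen with earlier results of these data known, so a high share is not independent support. Of the called genes 38 kept their call whichever of the 6 arrays was left out, 24 of them higher and 14 lower. The count fell to 51 without untreated replicate 2, to 97 without 8 h replicate 1 and to 102 without 8 h replicate 3. Other probe sets exist for 36 called genes, 42 in all. Of these 31 moved in the same direction and 11 in the opposite one, and 11 passed the test, all in the same direction. The other probe set was below 0 for the rises of Ccnd1 (−0.04), Rfc5 (−0.04), Imp4 (−0.14), Slc6a8 (−0.13) and Eif3b (−0.12), none of which passed. Averaging over probe sets ended the calls of Imp4, Slc6a8 and Eif3b. A fit of the 6 arrays alone, which has fewer arrays to estimate the spread, called Psat1, Nup85, Gad1 and Mx1. No called gene changed its direction under any of the 17 alternatives. This says little, because leaving out an array cannot turn the direction of a gene whose groups do not overlap. Several other alternatives alter only the p-value and not the change.

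Of 36 measured genes of the replication fork 7 rose and none fell, and 34 had a change above 0, with a median of 0.46. Of 20 genes that license or fire origins 3 rose, with a median of 0.52 and 17 above 0. Over all genes 1.15% were called higher. These were the highest shares called higher among the 28 pathway lists in the full fit, though not in every alternative, for with the acinar and leukocyte covariates ribosome biogenesis led with 14 of 93 genes. All arrays at 8 h lay above all untreated arrays in 20 of the 36 and in 11 of the 20 genes, against 5.88% of all genes. The mean of the fork list was 6.60 to 6.75 in untreated arrays and 7.02 to 7.38 at 8 h.

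Dtl (1:191537356-191575544 in GRCm38.p6), the substrate receptor of a ubiquitin ligase that acts on chromatin during replication, read 5.76, 5.86 and 5.61 in untreated islets and 6.64, 8.28 and 7.68 at 8 h. The groups were separate, with 8 h replicate 1 the lowest of the treated arrays. The rise was 1.79 ± 0.34 (3.46-fold, adjusted p = 0.00805), and the call held without any 1 array. Rpa2, a subunit of the protein that coats single-stranded DNA, read 7.11, 7.27 and 7.26 against 7.90, 8.48 and 8.21. The 3 untreated arrays lay close together and all treated arrays were higher, by 0.98 ± 0.18 on average (adjusted p = 0.00685). Tipin, which stabilises stalled forks, rose by 0.74 ± 0.13 (adjusted p = 0.00457). Rpa2 and Tipin also held without any 1 array.

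Cdc7, the kinase that fires licensed origins, read 5.90, 5.89 and 6.54 in untreated islets and 7.87, 7.75 and 7.49 at 8 h. The gap between the groups was wide, and the rise was 1.59 ± 0.34 (adjusted p = 0.0165). Its call was lost without untreated replicate 1 (adjusted p = 0.0614), untreated replicate 2 (0.0896) or 8 h replicate 1 (0.0602), with the rise still 1.48 to 1.51. Topbp1, which activates both origins and the checkpoint kinase ATR, rose by 1.39 ± 0.33, and Orc6, a subunit of the origin recognition complex, by 0.79 ± 0.17. The other called fork genes were the primase subunit Prim1 (1.14 ± 0.26), the clamp loader subunit Rfc5 (1.06 ± 0.24), Uhrf1 (0.95 ± 0.23), which carries DNA methylation through replication, and the histone chaperone Nasp (0.68 ± 0.15). Each of these 6 genes lost its call without untreated replicate 2, with an adjusted p between 0.101 and 0.205. They kept it in 1 (Uhrf1) to 3 (Rfc5 and Nasp) of the 6 fits with 1 array left out. Prim1 and Nasp read 5.14 ± 0.18 and 5.27 ± 0.32 in untreated islets, close to control probe sets for bacterial transcripts, of which 13 of 15 averaged 5.0 or less. Without untreated replicate 2 or 8 h replicate 2 the fork list had 3 called genes. It also had 3 with the acinar and leukocyte means as covariates, and 4 without the 40% lowest probe sets. The origin list had 0 called genes without untreated replicate 1 or 2, 1 without 8 h replicate 1 or 2 and 2 without 8 h replicate 3.

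Other replication genes did not pass. Pcna, the sliding clamp, read 6.89, 7.41 and 8.07 against 8.38, 8.83 and 9.28, groups that did not overlap, with a difference of 1.37 ± 0.37 (adjusted p = 0.0624). It passed when untreated replicate 3 or the 40% lowest probe sets were left out. The helicase subunit Mcm2 read 7.77, 7.75 and 7.79 against 8.08, 9.06 and 8.52, a difference of 0.78 ± 0.28 (adjusted p = 0.176). For Mcm5 the brightest probe set differed by −0.25 ± 0.16 and the mean of all its probe sets by 0.88 (adjusted p = 0.155), so its probe sets disagree in direction. None of 9 genes of deoxynucleotide supply was called, though 8 had a change above 0 and their median was 0.41.

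**Figure D2:**
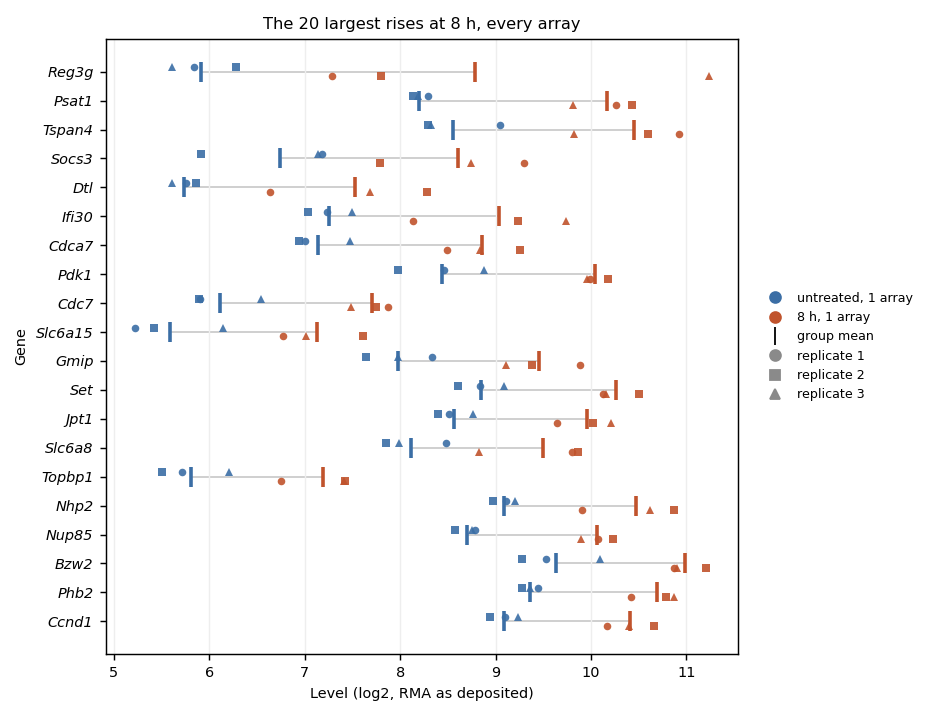
Log2 level (horizontal axis) of the 20 genes with the largest rises among called genes whose groups did not overlap (vertical axis), in each untreated array (blue) and each 8 h array (red), with symbols for replicates 1 to 3 and bars at the group means. Reg3g, at the top, had 1 array at 11.24 and the other 2 at 7.29 and 7.80, while Nup85 and Phb2 had narrow groups.

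Among the cell cycle regulators 1 gene was called. Ccnd1, the cyclin D1 gene whose product starts the G1 phase with Cdk4 (7:144929931-144939831), read 9.10, 8.94 and 9.24 in untreated islets and 10.17, 10.66 and 10.40 at 8 h. Every treated array was clear of every untreated array. The rise was 1.32 ± 0.24 (2.49-fold, adjusted p = 0.00683) and held without any 1 array, but a second Ccnd1 probe set differed by −0.04 ± 0.10. Of the 26 G1/S regulators 1 was called (3.85%, against 1.15% of all genes called higher), and the list's median was 0.08. The differences were 0.17 ± 0.27 for Ccnd2, −0.03 ± 0.12 for Ccne1 and −0.10 ± 0.19 for Cdk4, and these 3 changed sign in some fits with 1 array left out. The inhibitors Cdkn1a and Cdkn1b differed by −0.32 ± 0.20 and −0.08 ± 0.12, without passing.

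Of 46 genes of mitosis and G2/M 1 was called at 8 h (2.17%, against 1.15% of all genes called higher). This was Mad2l1 of the spindle checkpoint, at 0.88 ± 0.22 (adjusted p = 0.0447), and the call was lost without any 1 array except 8 h replicate 1 (adjusted p 0.0519 to 0.163). The list's median was 0.21, and 36 of 46 lay above 0, as did 3333 of all 8251 genes. Mki67, the proliferation marker, read 5.91, 5.84 and 6.37 against 6.38, 7.32 and 7.45. The lowest treated array was thus level with the highest untreated array, and the difference was 1.01 ± 0.74 (adjusted p = 0.524).

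Of 93 ribosome biogenesis genes 8 rose (8.6%, against 1.15% of all genes) and none fell. A change above 0 was found in 80, and in 3333 of all 8251 genes, and the list's median was 0.33. The mean of the list was 7.91 to 8.07 in untreated arrays and 8.29 to 8.45 at 8 h. Nhp2, a protein of the snoRNPs that modify ribosomal RNA, read 9.11, 8.97 and 9.20 against 9.91, 10.87 and 10.62. Its groups were separate by a wide margin, and the rise was 1.37 ± 0.24 (2.59-fold, adjusted p = 0.00457). Bop1, of the complex that processes the large subunit, read 8.60, 8.12 and 8.01 against 9.06, 9.22 and 9.05. Here the treated arrays lay within a narrow band above the untreated ones, and the rise was 0.87 ± 0.14 (adjusted p = 0.00266). A second Bop1 probe set differed by only 0.07 ± 0.19, and with the mean of both the call was lost. Imp3, of the small subunit processome, rose by 0.78 ± 0.14 and Pak1ip1, also a nucleolar assembly factor, by 0.78 ± 0.15. These 4 calls of the brightest probe sets held without any 1 array. Utp4 (0.93 ± 0.22), the Bop1 partner Pes1 (0.84 ± 0.19), Tcof1 (0.79 ± 0.17), which promotes ribosomal RNA transcription, and Imp4 (0.56 ± 0.12) rose as well. Each of these lost its call without untreated replicate 2 (adjusted p 0.0608 to 0.138) or 8 h replicate 2 (0.0639 to 0.113). The list had 4 called genes without either of these arrays, 13 without untreated replicate 3, and 14 with the acinar and leukocyte means or the Gapdh excess as covariates.

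Nop56, Ncl, Npm1 and Odc1, which are often taken as Myc targets, did not pass in the full fit. Nop56 read 11.34, 10.40 and 11.32 against 12.04, 12.13 and 11.58. All treated arrays were higher, with a difference of 0.90 ± 0.25 and an adjusted p of 0.0758. Ncl differed by 0.66 ± 0.26, Npm1 by 0.79 ± 0.28 and Odc1, the first enzyme of polyamine synthesis, by 0.59 ± 0.21.

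Among 41 translation factors 3 rose (7.32%, against 1.15% of all genes). Bzw2, a regulator of start codon choice (12:36091835-36156841), read 9.53, 9.28 and 10.09 in untreated islets and 10.87, 11.20 and 10.90 at 8 h. Untreated replicate 3 was the highest of its group and still below all treated arrays. The rise of 1.36 ± 0.16 (2.56-fold) had an adjusted p of 0.000149, which stayed at or below 0.00212 whichever array was left out. Eif4ebp1, a repressor of cap-dependent translation that acts under mTORC1, read 7.65, 7.38 and 7.24 against 8.63, 8.61 and 8.14, a rise of 1.04 ± 0.17. Eif3b, a scaffold subunit of initiation factor 3, rose by 0.52 ± 0.12 and lost its call without untreated replicate 2 or 3 or 8 h replicate 2 or 3 (adjusted p 0.0547 to 0.0866). No gene of 21 tRNA synthetases or 37 proteasome subunits was called, at medians of 0.15 and 0.18.

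To show the sequence that Myc and Max can bind, stretches of called genes that hold CACGTG are printed for 6 higher and 2 lower genes with a rise, a fall or a role described here. Each has 30 bases on either side of the motif, 5′ to 3′ on the gene's strand, with CACGTG in capitals. They are RefSeq sequences of GRCm38.p6 from windows of 250 bases before to 50 after each gene start.
Bzw2 (higher, chr12:36156881-36156946, minus strand): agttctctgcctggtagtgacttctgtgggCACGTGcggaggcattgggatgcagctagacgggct
Set (higher, chr2:30061832-30061897, plus strand): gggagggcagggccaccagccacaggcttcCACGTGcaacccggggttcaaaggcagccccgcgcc
Tspan4 (higher, chr7:141476299-141476364, plus strand): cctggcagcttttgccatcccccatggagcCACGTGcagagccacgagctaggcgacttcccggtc
Imp4 (higher, chr1:34439678-34439743, plus strand): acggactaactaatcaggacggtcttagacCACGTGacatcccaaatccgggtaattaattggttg
Ran (higher, chr5:129020008-129020073, plus strand): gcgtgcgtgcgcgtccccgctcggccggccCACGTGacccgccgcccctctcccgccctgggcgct
Timm9 (higher, chr12:71136698-71136763, minus strand): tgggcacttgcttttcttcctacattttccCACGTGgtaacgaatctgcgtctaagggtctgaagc
Pdx1 (lower, chr5:147270016-147270081, plus strand): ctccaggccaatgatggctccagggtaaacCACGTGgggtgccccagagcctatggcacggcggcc
Mlx (lower, chr11:101087220-101087285, plus strand): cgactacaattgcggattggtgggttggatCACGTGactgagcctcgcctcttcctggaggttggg
The motif, which reads the same on both strands, was held by 15 of 90 windows of called higher genes (16.7%), 14 of 70 of called lower genes (20%) and 803 of 8408 windows of all genes tested (9.55%). Windows were matched for 76 of the 95 higher and 53 of the 63 lower genes, and a gene can have several. The E2F-type words TTTCCCGC and TTTGGCGC, searched on both strands, were rarer. TTTGGCGC was in 3.33% of windows of higher genes (Dtl, with Casp8ap2 and Uxs1, both named after their values were seen), in none of 70 of lower genes and in 0.951% of all. TTTCCCGC was in 2.22%, 1.43% and 1.76% of these windows. A match describes letters only, and the shares were not tested.

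Genes of nuclear transport and RNA processing gave 6 rises among 60 genes (10%, against 1.15% of all genes) and no fall, with a median of 0.34. Nup85, a subunit of the nuclear pore scaffold, had the lowest adjusted p of the comparison, 1.3e-05. It read 8.78, 8.58 and 8.75 in untreated islets and 10.07, 10.23 and 9.89 at 8 h, and both groups were narrow and far apart. The rise was 1.36 ± 0.14 (2.57-fold), and a second probe set gave 1.47 ± 0.15. Ran, the GTPase that gives nuclear transport its direction, rose by 0.65 ± 0.16 (adjusted p = 0.0368), and the export receptor Xpo1 by 0.76 ± 0.19 (adjusted p = 0.0444). A second Xpo1 probe set differed by only 0.09 ± 0.13, and averaging over probe sets ended the Xpo1 call. The spliceosomal proteins Snrpe, Snrpd3 and Snrpa1 rose by 0.97 ± 0.24, 0.90 ± 0.21 and 0.67 ± 0.15. Of these 6 genes only Nup85 held without any 1 array. Both Ran and Xpo1 were lost without untreated replicate 1 (adjusted p 0.159 and 0.131), untreated replicate 2 (0.140 and 0.249) or 8 h replicate 2 (0.117 and 0.0927). The list had 2 called genes without untreated replicate 1, untreated replicate 2 or 8 h replicate 3, and 1 without 8 h replicate 2.

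Psat1, which makes the precursor of serine (19:15905123-15925059), read 8.29, 8.13 and 8.19 in untreated islets and 10.26, 10.43 and 9.81 at 8 h. The untreated arrays lay close together and the treated arrays far above them. The rise of 1.96 ± 0.28 (3.90-fold, adjusted p = 0.000642) passed in every alternative, that of the 6 arrays alone included, and it was the only call among 23 genes of serine, one-carbon and polyamine synthesis. In nucleotide synthesis 3 of 23 genes rose (13%, against 1.15% of all genes). They were Tkt of the pentose phosphate pathway (1.08 ± 0.19), Adsl of purine synthesis (0.98 ± 0.23) and Ctps, which makes CTP (0.95 ± 0.17). Tkt held without any 1 array. Without untreated replicate 2, Ctps had an adjusted p of 0.0501 and Adsl of 0.165, and 1 gene of the list was called. Adsl kept its call in only 2 of the 6 fits with 1 array left out.

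Pdk1, a kinase that inhibits pyruvate dehydrogenase, read 8.46, 7.98 and 8.88 against 9.99, 10.18 and 9.96. The treated arrays lay close together, and all were above the untreated ones. Its rise of 1.60 ± 0.25 (3.04-fold, adjusted p = 0.00164) held without any 1 array. The other called gene among 21 of glycolysis and lactate was the lactate carrier Slc16a1 (0.80 ± 0.20), whose levels of 3.99 ± 0.16 and 4.78 ± 0.19 were those of the bacterial controls, and whose call was lost without any 1 array. The median of this list was 0.01, and 9.52% of its genes were called higher, against 1.15% of all genes. Fasn and Elovl6, which build and lengthen fatty acids, rose by 0.88 ± 0.22 and 0.82 ± 0.18 among 26 genes of cholesterol and fatty acid synthesis, of which 13 lay above 0 and 13 below. Without 8 h replicate 1 Fasn had an adjusted p of 0.183 and Elovl6 of 0.0835, and they were lost without some other arrays too.

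In the list of import and mitochondrial ribosome genes 4 of 52 rose (7.69%, against 1.15% of all genes) and 1 fell (1.92%, against 0.764%). The rises were in the import proteins Timm8a1 (1.27 ± 0.29), Timm9 (0.75 ± 0.17) and Timm23 (0.69 ± 0.14) and the ribosomal protein Mrpl12 (0.62 ± 0.15). The import channel protein Timm17b fell by 0.43 ± 0.10. None of these 5 calls held in all fits with 1 array left out, and without untreated replicate 1 or 8 h replicate 2 none of the 4 rises was called. None of 64 genes of oxidative phosphorylation was called, and their median was 0.07. Among 35 chaperones 2 rose (5.71%, against 1.15% of all genes). The prohibitin Phb2, which shapes the inner mitochondrial membrane, read 9.44, 9.28 and 9.36 against 10.42, 10.79 and 10.87. The groups were narrow and far apart, with a rise of 1.33 ± 0.18 (2.52-fold, adjusted p = 0.000537) that held without any 1 array. Dnajc2, a chaperone at the ribosome, rose by 0.92 ± 0.22. Sod2, the mitochondrial superoxide dismutase and the only rise among 33 sulfation, hormone and detoxification enzymes, rose by 1.0 ± 0.23. Without untreated replicate 2 these had an adjusted p of 0.129 and 0.167. Dnajc2 kept its call in only 1 and Sod2 in only 2 of the 6 fits with 1 array left out.

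**Figure D3:**
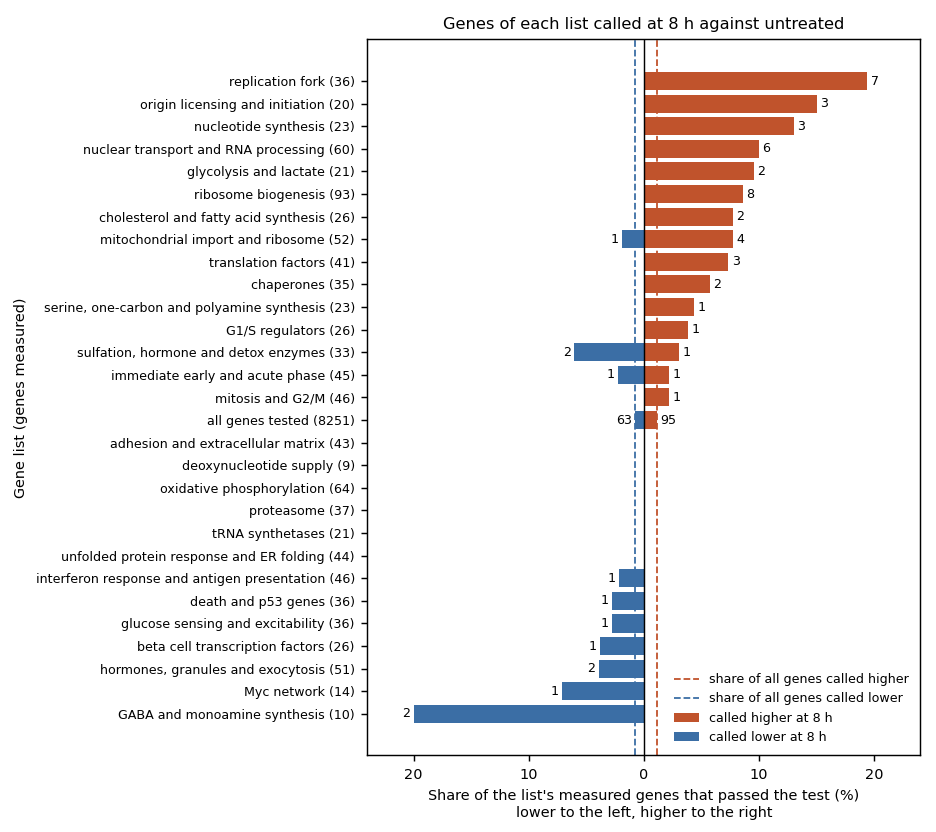
Share of each pathway list's measured genes that passed the test at 8 h (horizontal axis, percent), higher to the right in red and lower to the left in blue, for 28 lists (vertical axis, with the number of genes measured) and all genes. Numbers at the bars count genes, and dashed lines mark the shares over all genes, 1.15% higher and 0.764% lower. In this fit the replication fork list has the longest red bar, 7 genes, and the blue bar of 20% stands for 2 of 10 genes.

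Of the 158 called genes 99 were in no list, 49 higher and 50 lower. Several of the largest rises are among them. Tspan4, a membrane protein of the tetraspanin family, read 9.05, 8.29 and 8.32 in untreated islets and 10.92, 10.60 and 9.82 at 8 h. Untreated replicate 1 was the highest of its group but below each treated array, and the rise was 1.89 ± 0.33 (3.71-fold, adjusted p = 0.00457). Cdca7, a chromatin protein induced by Myc and E2F, read 7.0, 6.94 and 7.47 against 8.49, 9.26 and 8.84. Its rise of 1.73 ± 0.26 (3.31-fold, adjusted p = 0.00117) held without any 1 array, as did that of Tspan4. Set, a histone chaperone and inhibitor of phosphatase PP2A, rose by 1.42 ± 0.25 (2.67-fold) and Jpt1, a microtubule-associated protein, by 1.40 ± 0.18 (2.64-fold). Both held without any 1 array.

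Slc6a15, a carrier of neutral amino acids, read 5.22, 5.42 and 6.14 against 6.77 to 7.61 at 8 h. The rise was 1.54 ± 0.29 (2.90-fold), with an adjusted p of 0.0516 without untreated replicate 2. The creatine carrier Slc6a8 read 8.48, 7.85 and 7.99 against 9.80, 9.86 and 8.83. The third treated array lay well below the other 2, and the rise of 1.39 ± 0.28 lost its call without untreated replicate 2 (adjusted p = 0.0831), 8 h replicate 1 (0.0605) or 8 h replicate 2 (0.0591).

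Reg3g, an antibacterial lectin of stressed acinar cells, read 5.84, 6.28 and 5.61 against 7.29, 7.80 and 11.24. The array with the highest acinar mean, 8 h replicate 3, also had the highest Reg3g level, but Reg3g is itself 1 of the 22 acinar markers in that mean. The change of 2.87 ± 0.72 became 1.64 without that array, and the call was lost (adjusted p = 0.172). It was lost without untreated replicate 1 (0.106), 2 (0.114) or 3 (0.0756) as well. The call was also lost with the acinar and leukocyte covariates, though the acinar covariate holds the Reg3g values themselves. Ifi30, a lysosomal thiol reductase that serves antigen presentation, read 7.23, 7.03 and 7.50 against 8.13, 9.24 and 9.74. Its rise of 1.78 ± 0.38 had an adjusted p of 0.0979 without 8 h replicate 3, and the call was also lost without 8 h replicate 2 (0.0616), untreated replicate 1 (0.0517) or untreated replicate 2 (0.0988). Socs3, an inhibitor of cytokine signalling, read 7.18, 5.91 and 7.14 against 9.30, 7.79 and 8.74, a rise of 1.87 ± 0.34 that had an adjusted p of 0.0523 without untreated replicate 2. It was the only rise among 45 immediate early and acute phase genes, whose median was 0.13, and Btg2, an inhibitor of proliferation, was the only fall (−0.64 ± 0.15). The Btg2 call was lost without untreated replicate 2 or 3 or 8 h replicate 1 or 2 (adjusted p 0.082 to 0.158).

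The 3 largest measured falls were in Mx1, Papss2 and Gad1, and the order among them has no weight with levels this low. Mx1, an antiviral GTPase induced by interferon (16:97447035-97462906), read 7.70, 8.29 and 8.23 in untreated islets and 5.40, 5.53 and 4.90 at 8 h. No treated array came within 2 units of an untreated array, and the treated levels lay close to those of the bacterial controls, where a fold is poorly measured. The fall was 2.80 ± 0.41 (adjusted p = 0.00117). None of the other 45 genes of the interferon and antigen presentation list was called, and the median of the list was 0.12. Its close relative Mx2 differed by −0.26 ± 0.17. Papss2, which makes the sulfate donor for sulfation (19:32595669-32667187), read 7.77, 8.86 and 9.22 against 5.81, 6.31 and 5.84. Untreated replicate 1 was about 1 unit below the other 2, yet all treated arrays were lower still, by 2.63 ± 0.32 on average (6.19-fold, adjusted p = 0.000191). Gad1, which makes the transmitter GABA (2:70561303-70602014), read 7.06, 7.14 and 7.51 against 4.77, 4.38 and 4.75. The treated levels lay among those of the bacterial controls, so no fold is given here either. The measured fall was 2.60 ± 0.49 (adjusted p = 0.00748). The calls of Mx1, Papss2 and Gad1 held without any 1 array.

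**Figure D4:**
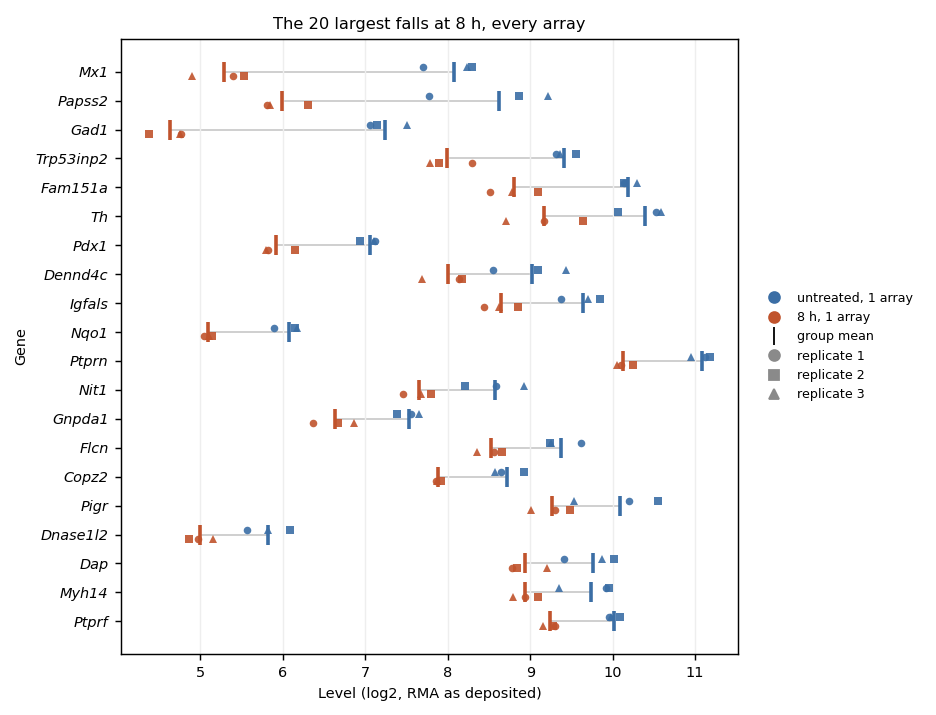
Log2 level (horizontal axis) of the 20 genes with the largest falls among called genes whose groups did not overlap (vertical axis), in each untreated array (blue) and each 8 h array (red), with symbols for replicates 1 to 3 and bars at the group means. Mx1, Papss2 and Gad1 fell by 2.60 to 2.80, and the next gene, Trp53inp2, by 1.42.

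Trp53inp2, which supports autophagy and nuclear receptor activity, read 9.31, 9.55 and 9.36 against 8.29, 7.89 and 7.79. The groups were narrow and 1 unit or more apart, and the fall was 1.42 ± 0.22 (2.67-fold, adjusted p = 0.00185). Fam151a fell by 1.39 ± 0.22 (2.63-fold, adjusted p = 0.00242). Th, the first enzyme of dopamine synthesis, read 10.53, 10.06 and 10.59 against 9.17, 9.64 and 8.71. Its fall of 1.22 ± 0.29 was called in the full fit (adjusted p = 0.0339) and in none of the fits without an array except that without 8 h replicate 2 (adjusted p 0.0523 to 0.139). Th and Gad1 were the 2 called genes among 10 of GABA and monoamine synthesis, a list whose median was −0.14. The share was 20%, against 0.764% of all genes called lower, in a list chosen with earlier results of these data known. Nqo1, a quinone reductase of the antioxidant response, fell by 0.98 ± 0.15 (adjusted p = 0.00164), and its second probe set by 0.93 ± 0.17. Gnpda1, which turns glucosamine phosphate into fructose phosphate, fell by 0.90 ± 0.16. Trp53inp2, Fam151a, Nqo1 and Gnpda1 held without any 1 array.

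Among the transcription factors of beta cells 1 was called lower. Pdx1, which maintains beta cell identity and insulin transcription, read 7.12, 6.94 and 7.11 in untreated islets and 5.82, 6.15 and 5.80 at 8 h (5:147270097-147275848). Both groups were narrow and did not come near each other. The fall was 1.13 ± 0.20 (2.19-fold, adjusted p = 0.00457), and it held without any 1 array. Of 26 beta cell transcription factors 24 had a change below 0, with a median of −0.23, whereas 4907 of all 8251 genes did, with a median of −0.05. The other factors gave differences without passing, −0.77 ± 0.30 for Neurod1, −0.55 ± 0.21 for Foxa2, −0.55 ± 0.38 for Pax6, −0.39 ± 0.34 for Isl1 and −0.33 ± 0.28 for Nkx2-2. Pax6 changed sign with the acinar and leukocyte covariates.

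The glucose-sensing list had 28 of 36 genes below 0, against 4907 of all 8251 genes, and a median of −0.14. Cacna1c, the pore of an L-type calcium channel, fell by 0.51 ± 0.13 with an adjusted p of 0.0491, and the call was lost without any 1 array except 8 h replicate 2 (adjusted p 0.0603 to 0.251). Slc2a2, the glucose carrier GLUT2, read 9.95, 10.63 and 10.98 against 9.24, 9.70 and 8.98. The groups did not overlap, but the difference of −1.21 ± 0.42 did not pass in the fit, whose SE pools the spread within all groups (adjusted p = 0.157). The potassium channel subunits Kcnj11 and Abcc8 differed by −0.10 ± 0.08 and −0.53 ± 0.30 and the phosphatase G6pc2 by −0.67 ± 0.31.

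No hormone gene passed the test. Ins2, which encodes insulin, read 13.83, 13.74 and 13.88 against 13.86, 13.81 and 13.81, a difference of 0.01 ± 0.11 whose sign turned in some alternatives. Whether the signal of its probe set can still follow a change at so high a level was not tested. Iapp, the gene of amylin, differed by −0.43 ± 0.17 (adjusted p = 0.236). Among the hormones of other islet cells Gcg of alpha cells differed by −0.46 ± 0.88 and Ppy of PP cells by −0.71 ± 0.58, and the 6 markers of these cells had a median of −0.44, all below 0. Within the list of hormones, granules and exocytosis 43 of 51 genes lay below 0, against 4907 of all 8251 genes. In this list 2 genes were called lower (3.92%, against 0.764% of all genes). Ptprn, a protein of the granule membrane, read 11.12, 11.18 and 10.95 against 10.10, 10.25 and 10.05. The 2 groups were tight and about 1 unit apart. The fall of 0.95 ± 0.20 had an adjusted p of 0.0163, or 0.0831 without untreated replicate 2 and 0.0569 without 8 h replicate 3. Ero1b, which oxidises folding proinsulin, fell by 0.74 ± 0.19, and its call was lost without any 1 array except 8 h replicate 2 (adjusted p 0.0565 to 0.172).

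The probe sets for the transgenes' source genes and for the Myc network gave few calls. The mouse Myc probe set read 4.07, 3.52 and 3.70 against 4.48, 3.58 and 5.44, all near the bacterial controls, with a difference of 0.74 ± 0.49. Esr1, the oestrogen receptor gene, read 12.00, 12.23 and 11.94 against 10.95, 11.55 and 10.87. The groups were apart, but the difference of −0.93 ± 0.28 did not pass (adjusted p = 0.105), and whether its probes read the fusion gene was not tested. Bcl2l1, the gene of BclXL, differed by −0.19 ± 0.11. Of 14 network genes Mlx, a Max-like partner of glucose-sensing factors, was called, lower by 0.45 ± 0.11 (adjusted p = 0.0482), and not in any fit that left out an array (adjusted p 0.0634 to 0.224). Max and the Myc antagonist Mxi1 differed by 0.53 ± 0.21 and 0.70 ± 0.24. Among 36 genes of cell death and the p53 response 1 was called. Mdm2, which marks p53 for degradation, fell by 0.53 ± 0.11 (adjusted p = 0.0174), or 0.0577 without untreated replicate 3 and 0.0561 without 8 h replicate 1. The median of that list was 0.01.

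The 8 h levels can be set beside those of the earlier and later arrays, with the caution that changes against untreated share the untreated arrays. The median change of the fork list against untreated was −0.04 at 2 h, 0.12 at 4 h, 0.46 at 8 h and 0.31 at 24 h. That of the ribosome biogenesis list was 0.31, 0.30, 0.33 and 0.01 at the same times. Rpa2 read 7.21 ± 0.09 untreated, 6.90 ± 0.11 at 2 h, 7.45 ± 0.23 at 4 h, 8.20 ± 0.29 at 8 h and 7.55 ± 0.30 at 24 h. Bop1 read 8.24 ± 0.31, 9.10 ± 0.11, 9.21 ± 0.03, 9.11 ± 0.10 and 8.63 ± 0.10. The 8 h level of Rpa2 thus lay above those of the earlier groups, and that of Bop1 was level with 2 h and 4 h. Gad1 read 6.92 ± 0.27 at 2 h, 4.85 ± 0.68 at 4 h, 4.63 ± 0.22 at 8 h and 6.18 ± 0.50 at 24 h. Papss2 read 8.20 ± 0.13, 7.13 ± 0.24, 5.99 ± 0.28 and 7.36 ± 0.56, so its lowest group mean was at 8 h. These orders rest on group means, and neither Rpa2 nor Papss2 was called at 8 h against 4 h.

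**Figure D5:**
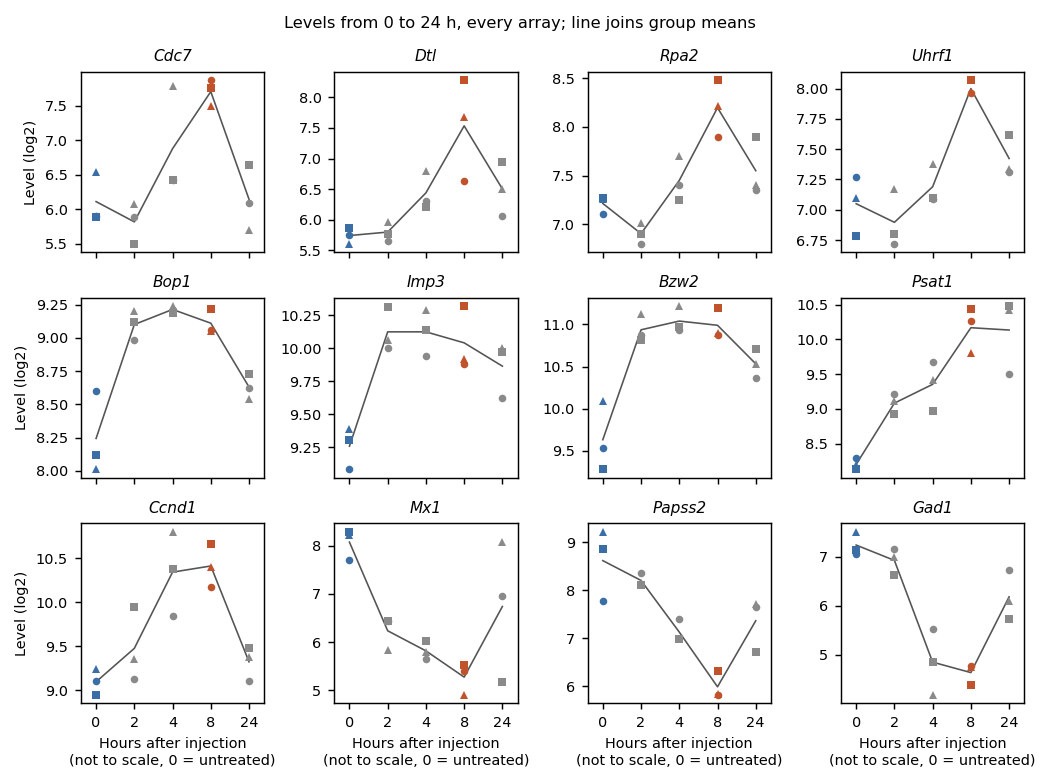
Log2 level (vertical axis, a scale per gene) of 12 genes in each array of the untreated, 2 h, 4 h, 8 h and 24 h groups (horizontal axis, hours after injection, not to scale), with untreated in blue, 8 h in red, symbols for replicates 1 to 3 and a line through group means. The highest group mean of Rpa2 was 8.20, at 8 h, whereas that of Bop1 was at 9.10 by 2 h. The lowest group mean of Papss2 was 5.99, at 8 h.

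A comparison with the 4 h islets, which uses the same 8 h arrays, was made to see what moved between these times. Against the 4 h islets 2 genes were called at 8 h, both higher (0.0242% of genes), and none lower, while 592 genes had an unadjusted p under 0.05. Herpud1, which helps remove misfolded proteins from the endoplasmic reticulum, read 9.04, 8.89 and 9.17 at 4 h and 10.24, 10.03 and 9.83 at 8 h. Every 8 h array was higher, by 1.0 ± 0.15 on average (adjusted p = 0.0249). Creld2, a folding factor induced by stress in the same compartment, read 7.94, 7.63 and 8.05 against 9.37, 9.18 and 8.68, a rise of 1.20 ± 0.20 (adjusted p = 0.0372). Against untreated islets the 2 genes differed by 0.56 ± 0.15 and 0.38 ± 0.20 without passing, and none of 44 genes of the unfolded protein response was called there. The count against 4 h was 0 when any 1 of these 6 arrays was left out, except 8 h replicate 3, without which it was 4.

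Between 8 h and 24 h 109 genes rose (1.32%) and 68 fell (0.824%). Mitotic genes led the rises, with 18 of 46 called and a median of 0.92. Aurka, a kinase of the spindle poles, read 5.64, 6.41 and 6.17 at 8 h and 7.62, 8.35 and 8.65 at 24 h, a rise of 2.13 ± 0.34 (adjusted p = 0.00474). The mitotic entry factor Cdca3 rose by 2.30 ± 0.37, and the Cdk-binding protein Cks2 by 2.00 ± 0.45. Cdc7 fell by 1.56 ± 0.34 and Cdca7 by 1.59 ± 0.26, to 24 h levels of 6.14 ± 0.47 and 7.27 ± 0.35 beside untreated levels of 6.11 ± 0.37 and 7.14 ± 0.29. In ribosome biogenesis 7 of 93 genes fell, in nuclear transport and RNA processing 4 of 60, and Papss2 was higher again by 1.38 ± 0.32 (adjusted p = 0.0299). The count of 177 genes became 39 without 8 h replicate 1, 79 without 24 h replicate 2 and 41 without 24 h replicate 3. The acinar mean was 11.27 to 11.91 at 24 h against 8.96 to 11.27 at 8 h, and the Gapdh excess was 3.70 to 3.90 against 4.50 to 4.94. With the acinar and leukocyte means as covariates the count was 50, and with the Gapdh excess 41.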

How the data were processed

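Levels were taken from the deposited table of 27 arrays, which holds the authors' log2 levels. The submitters' processing notes name RMA, and for its version and settings the entry is "not given in the sources used here". The table holds 12488 probe sets, of which 66 are controls, and 12422 were tested. A symbol was assigned to 10833, several symbols to 396 and none to 1193. Genes are 8251 symbols, each by its brightest probe set. Fits used limma 3.58.1 in R 4.3.3 (lmFit and eBayes, 18 residual degrees of freedom), with Benjamini-Hochberg adjustment over all 12422 probe sets. The fit was tested on simulated data. Genes named in the report were drawn from the 20 largest rises and falls among called genes whose groups did not overlap, all called list members, a panel, the 5 largest changes each way against 4 h and 24 h, and, for promoters, those of these genes with CACGTG; genes named only in the closing observations were chosen after their values were seen. Members and lists were chosen with earlier results of these data known. Alternatives were a fit of the compared arrays, other normalizations, filters, weights, covariates, a replicate block and leaving out each array.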

Additional observations from a re-analysis of the deposited data

Results flagged for a closer look

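The 8 h islets differed from those of the neighbouring times in a test of the difference itself (limma, Benjamini-Hochberg adjusted), which brought up the following values. Against 4 h 2 genes were called, Creld2 with a log2 change of 1.20 (adjusted p = 0.0372) and Herpud1 with 1.0 (adjusted p = 0.0249). Each was higher in all 3 arrays at 8 h than in all 3 at 4 h.

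Between 8 h and 24 h 177 genes were called. The 5 largest falls were in Cdca7 (−1.59, adjusted p = 0.00474), Cdc7 (−1.56, 0.0195), Socs3 (−1.49, 0.0287), the sialyltransferase St8sia4 (−1.24, 0.0389) and the RNA polymerase I subunit Polr1b (−1.22, 0.0354). The 5 largest rises were in Reg3b (2.75, 0.0353), Cdca3 (2.30, 0.00496), Aurka (2.13, 0.00474), Cks2 (2.00, 0.0252) and the phosphatase Cdc25c (1.78, 0.00509), which opens mitosis. Reg3b is itself in the acinar marker list, whose mean was 11.27 to 11.91 at 24 h. Mki67 read 6.38, 7.32 and 7.45 at 8 h and 8.75, 9.52 and 9.18 at 24 h, and its difference of 2.10 ± 0.74 did not pass (adjusted p = 0.175).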

How the results depend on the processing

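Against untreated islets the count of 158 became 4 with the 6 compared arrays only and 40 with a 2-fold minimum, and it ran from 51 to 208 with 1 array left out. Against 4 h the count of 2 became 0 with the 6 arrays only (365 genes at an unadjusted p under 0.05), with array weights (385) and with the Gapdh excess as covariate (584), and 1 with median centring, and it ran from 0 to 4 with 1 array left out. Between 8 h and 24 h the count of 177 became 0 with the 6 arrays only (1157), 50 given acinar and leukocyte means as covariates, 41 given the Gapdh excess, 51 where changes had to reach 2-fold, and it ran from 39 to 188 with 1 array left out. The fits of the 6 arrays have fewer arrays and take their spread from the compared groups alone. What caused these differences in count was not tested. The labels do not say whether replicate numbers pair the samples. Correlations of same-numbered deviations were 0.03, 0.22 and 0.03 for 8 h and untreated arrays. They were 0.12, 0.34 and −0.15 for 8 h and 4 h, and 0.07, 0.04 and −0.09 for 24 h and 8 h. With the replicate number as a block the counts in these 3 comparisons were 153, 1 and 180. Of 35 panel genes not called, 8 changed sign under an alternative, among them Ppy (0.26 without 8 h replicate 3) and Mxd4 (0.33 without it), and 3 passed under at least 1 (Mxi1, Pcna and Nop56). Levels near the bacterial controls limit what can be said of Myc, Mx1 at 8 h, Gad1 at 8 h and Slc16a1, and 3 arrays per group limit the precision.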

Other observations

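The called genes outside the lists hold further groups, which were chosen here after their values were seen and carry no test of their own. Among the rises whose call held without any 1 array were Wdr55, which serves ribosomal RNA processing (1.21 ± 0.20, adjusted p = 0.00388), the neuronal membrane protein Sez6 (1.29 ± 0.22, 0.00457), the histone chaperone Anp32b (0.93 ± 0.18, 0.00805) and the Wnt receptor Fzd9 (0.49 ± 0.09, 0.00685). Anp32b read 9.82, 10.05 and 10.32 in untreated islets and 10.77, 11.17 and 11.05 at 8 h, so its groups did not overlap. The RNA methyltransferase Nsun2 rose by 0.79 ± 0.20 and the folate carrier Slc19a1 by 0.66 ± 0.16, and both lost the call without some arrays, untreated replicate 2 among them.

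Among the falls were 4 genes of traffic through the Golgi. Gbf1, which activates Arf GTPases, fell by 0.61 ± 0.14 (adjusted p = 0.0235), Arfgap3, which turns them off, by 0.61 ± 0.15 (0.0433), the coiled-coil protein Golga3 by 0.52 ± 0.12 (0.0235) and the fusion protein Stx5a by 0.69 ± 0.17 (0.0438). Gbf1 read 9.31, 9.25 and 8.88 against 8.58, 8.49 and 8.54, and Arfgap3 9.08, 9.22 and 9.07 against 8.49, 8.60 and 8.44. None of these 4 held its call in all fits with 1 array left out, and how many Golgi genes were measured was not counted. Mepce, which caps the 7SK RNA, fell by 0.45 ± 0.09 (0.00805), and its call held without any 1 array. Tsc2, which restrains mTORC1, fell by 0.54 ± 0.13 (0.0368), and its call was lost without any 1 array. Other Tsc2 probe sets differed by −0.15 ± 0.10 and −0.47 ± 0.17 without passing, and averaging over probe sets ended the call.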
